A study of Drosophila melanogaster with 30 samples.

Results

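The genes encoded in the mitochondrial genome of Drosophila melanogaster were followed through 30 libraries of nuclear RNA. They were taken as every gene of the count table whose name starts with mt:, which gave 37 of 17559 genes. The set holds 13 protein-coding genes, 2 ribosomal RNA genes and 22 transfer RNA genes, and all 37 were found by FlyBase identifier in the Ensembl annotation of the dm6 assembly (BDGP6). That annotation also names a control region, mt:ori, which was not analysed here.

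Mitochondria keep a small circular genome that codes for core subunits of the respiratory chain and for the ribosomal and transfer RNAs that translate them. The remaining subunits of the chain, the mitochondrial ribosomal proteins and the enzymes that copy and transcribe the genome are encoded in the nucleus and imported. Transcription of mitochondrial DNA yields long precursors that are cut at the transfer RNAs, so that neighbouring genes on a strand begin as part of the same molecule, and the mature messenger RNAs carry short poly(A) tails. Neurons and muscle draw much of their energy from this chain.

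Per the labels, nuclei of the mushroom body, a brain structure needed for olfactory memory, were used. Heads were crosslinked, nuclei were pulled down with an anti-FLAG gel, and poly(A) RNA was selected with oligo-dT before sequencing. The part of the nuclear pull-down and of this selection in the levels of mitochondrial RNA was not tested. Changes given below are therefore changes of RNA in these libraries. There were 10 groups of 3 libraries. Naive flies (not activated) and activated flies (5 min of optogenetic stimulation, 10 min of rest) were compared in the lines MB131 and MB477, each without and with RNA interference (RNAi) against the histone demethylase gene Kdm4B, and in flies lacking CsChrimson, the red-light-gated channel that the other groups express. No source used here gives the line of the flies without CsChrimson or the cells covered by MB131 and MB477. All groups share the strain label CS10, which 1 library of naive MB477 flies with RNAi lacks, and the series describes its flies as wild type. The labels do not state that replicates came from separate flies, so p-values measure the spread between these libraries only.

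Libraries held 8291599 to 14344348 counts. Levels are given in CPM, a gene's counts scaled to the same total in every library, and are printed for replicates 1, 2 and 3 in that order. Changes are log2 fold changes from edgeR's quasi-likelihood test with the SE after ±, and a gene is said to rise, fall or be higher or lower where its p-value, adjusted by the Benjamini-Hochberg method over all 11457 genes tested, was under 0.05. Kdm4B itself had 2 to 26 counts per library and passed the test in none of the 4 comparisons of RNAi (log2 fold changes from -1.05 to 0.24), so the labels of the RNAi groups could not be checked by it. Markers of Kenyon cells, the neurons of the mushroom body, were detected beside those of photoreceptors, muscle, fat body, glia and hemocytes, and no marker of these lists was without counts.

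The genes lie in blocks on alternating strands. On the plus strand come the complex I subunit gene ND2 (240 to 1263), the complex IV genes CoI (1474 to 3009) and CoII (3083 to 3767), the complex V genes ATPase8 (3907 to 4068) and ATPase6 (4062 to 4736), CoIII (4736 to 5524) of complex IV and ND3 (5608 to 5961) of complex I. A minus-strand block holds ND5 (6409 to 8125), ND4 (8207 to 9545) and ND4L (9545 to 9835). ND6 (9971 to 10495) and Cyt-b (10499 to 11635), which encodes the cytochrome b of complex III, follow on the plus strand. The last block, on the minus strand, holds ND1 (11721 to 12659) and the large and small ribosomal RNA genes lrRNA (12735 to 14058) and srRNA (14131 to 14916). ATPase8 and ATPase6 share 7 bases, ATPase6 and CoIII 1, ND4 and ND4L 1, and the transfer RNA genes tRNA:W and tRNA:C overlap by 8 bases on opposite strands. No source used here states whether counting used strand or how reads across such borders were assigned, and values of neighbours may therefore share reads.

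Mitochondrial genes took 75331 to 226123 counts of a library, a share of 0.751% to 2.15% with a median of 0.936%. Ribosomal RNA made up 54.7% of these counts over all libraries, complex IV messenger RNAs 29.5%, complex III 6.78%, complex I 5.26% and complex V 3.74%. The large ribosomal RNA alone held 2066289 counts and the small one 11903. Transfer RNAs held 459 counts, or 0.0121%. Of the 15 genes other than transfer RNAs, the 9 on the plus strand took 40.5% and the 6 on the minus strand 59.5% of their counts.

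Per kilobase of gene length, lrRNA was the highest with a mean of 4652 CPM per kb over the 30 libraries. It was followed by CoIII with 1467, CoI with 1054, CoII with 706, Cyt-b with 654 and ATPase6 with 613 CPM per kb. A gap separated these from the complex I genes ND4 (157), ND5 (130), ND1 (103) and ND3 (63.9). The small ribosomal RNA stood at 44.3 CPM per kb, and ND2 (15.1), ND4L (10.1) and ND6 (9.03) were lowest among the messenger RNAs tested. The steps from lrRNA to CoIII, CoIII to CoI, ATPase6 to ND4 and srRNA to ND2 held in 30 of 30 libraries. Neighbours in this order that were less separate were CoII and Cyt-b (CoII above in 21 of 30), Cyt-b and ATPase6 (22), ND4 and ND5 (23), ND2 and ND4L (22) and ND4L and ND6 (16). CoI lay above CoII in 27 of 30, and the 3 exceptions were the naive MB477 libraries.

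The low end of the set could not be compared between groups. Of the 22 transfer RNA genes, which encode the adaptors of mitochondrial translation, 7 had no count in any library and 15 had some. The highest was tRNA:Y, the tyrosine transfer RNA (1403 to 1468, minus strand), with 0 to 24 counts per library and 192 in all. ATPase8, a small subunit of the ATP synthase, had 0 to 6 counts per library and 50 in all. A gene with no count can stand at up to 3 counts, which is 0.209 to 0.362 CPM depending on the library, and this limit covers counting error only. The filter on low counts kept 15 of the 37 genes, tRNA:Y included, and dropped ATPase8 and the other 21 transfer RNAs.

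The mitochondrial share had group means of 0.820% to 1.05% in 8 of the 10 groups and was higher in naive and activated MB477 flies. It was 1.04%, 0.915% and 0.921% in the naive and 0.940%, 0.997% and 0.931% in the activated MB131 libraries. With RNAi in MB131 it was 0.865%, 0.857% and 0.840% in naive and 0.785%, 0.751% and 0.923% in activated flies. Without CsChrimson the naive libraries had 0.852%, 0.938% and 0.948%, and the activated ones 0.934%, 0.902% and 0.906%. All of these libraries lay at or under 1.04%. Naive MB477 flies reached 2.14%, 2.12% and 2.15%, and activated MB477 flies 1.52%, 1.57% and 1.58%. The group means ± SD were 2.14% ± 0.018 and 1.56% ± 0.028 (n = 3). With RNAi, MB477 had 1.02%, 1.05% and 1.09% in naive and 0.909%, 0.845% and 1.33% in activated flies. The naive MB477 share lay above that of all other 27 libraries, where the highest was 1.58%.

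**Figure D1:**
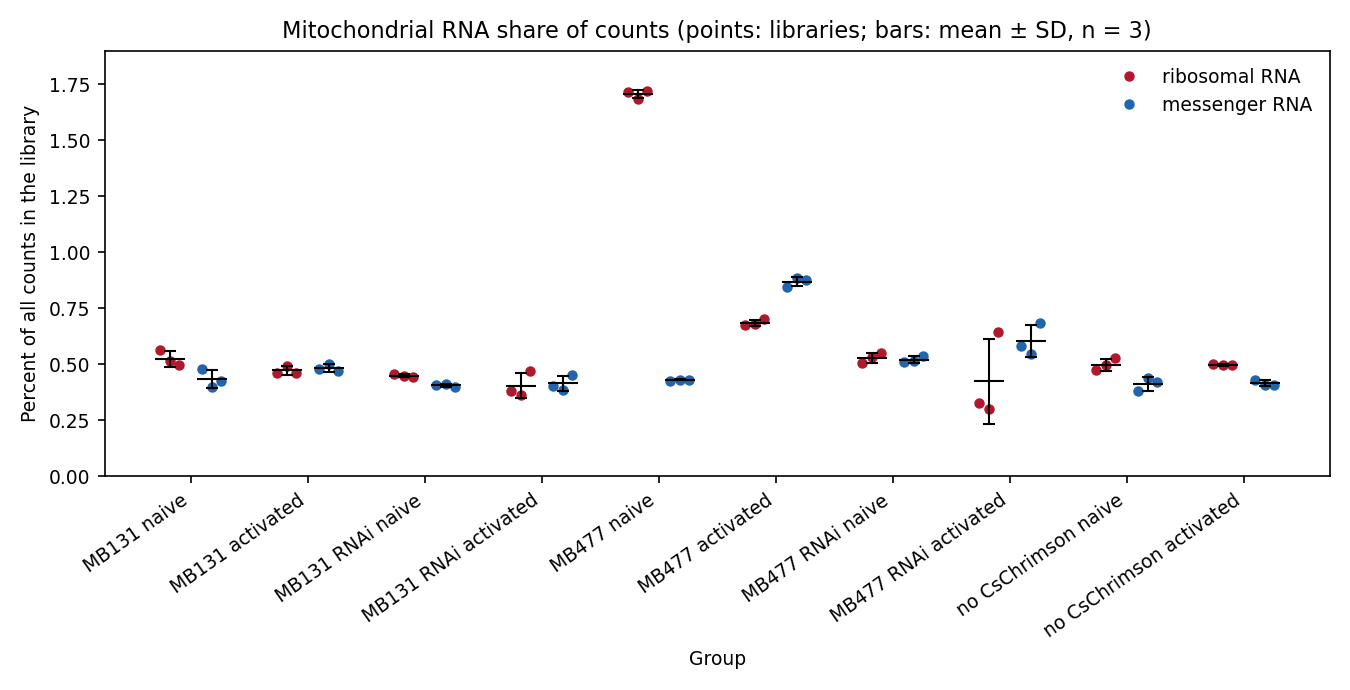
Share of all counts taken by mitochondrial ribosomal RNA (red) and messenger RNA (blue) in each library, in percent, for the 10 groups; bars are the mean and SD of 3 libraries. Ribosomal RNA reached 1.69% to 1.72% in naive MB477 flies against at most 0.702% elsewhere, and messenger RNA 0.847% to 0.887% in activated MB477 flies against at most 0.684% elsewhere.

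The composition of the mitochondrial RNA also set naive MB477 flies apart. The large ribosomal RNA, the scaffold of the large subunit of the mitochondrial ribosome, stood at 17068, 16788 and 17141 CPM there and at 2990 to 6972 CPM in the other 27 libraries. The small ribosomal RNA stood at 69.4, 73.0 and 61.9 CPM against 11.9 to 45.2 CPM elsewhere. ND5, a proton-pumping subunit of complex I, was lowest there, at 79.2, 77.4 and 80.5 CPM against 157.8 to 413 CPM. Cyt-b was also lowest, at 504.5, 516.9 and 518.9 CPM against 576.5 to 1356 CPM. These were the 4 of 15 genes tested that did not overlap the other 27 libraries. The same count was not made over all genes, so whether 4 of 15 is more than the usual share is not known. By edgeR's test, a different measure, 60.5% of all genes were called between naive MB477 and naive MB131 flies. The large ribosomal RNA was 79.3% to 79.7% of all mitochondrial counts there and 35.4% to 55.9% elsewhere.

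Some ratios within the mitochondrial RNA, which do not depend on library size, separated the same 3 libraries. ND5 and ND4 lie side by side on the minus strand, yet their CPM ratio was 0.429 to 0.463 in naive MB477 flies and 0.852 to 1.40 in the other libraries. CoI and CoII are neighbours on the plus strand, and their ratio was 1.74 to 1.99 against 2.72 to 5.24. The ratio of lrRNA to CoI was 13.6 to 14.7 against 1.44 to 4.33. A ratio alone shows unequal levels, not which of the genes differs. In CPM, ND5 and lrRNA lay outside the range of the other 27 libraries, as given above. ND4 (171 to 181 against 153 to 407 CPM), CoI and CoII lay within it.

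**Figure D2:**
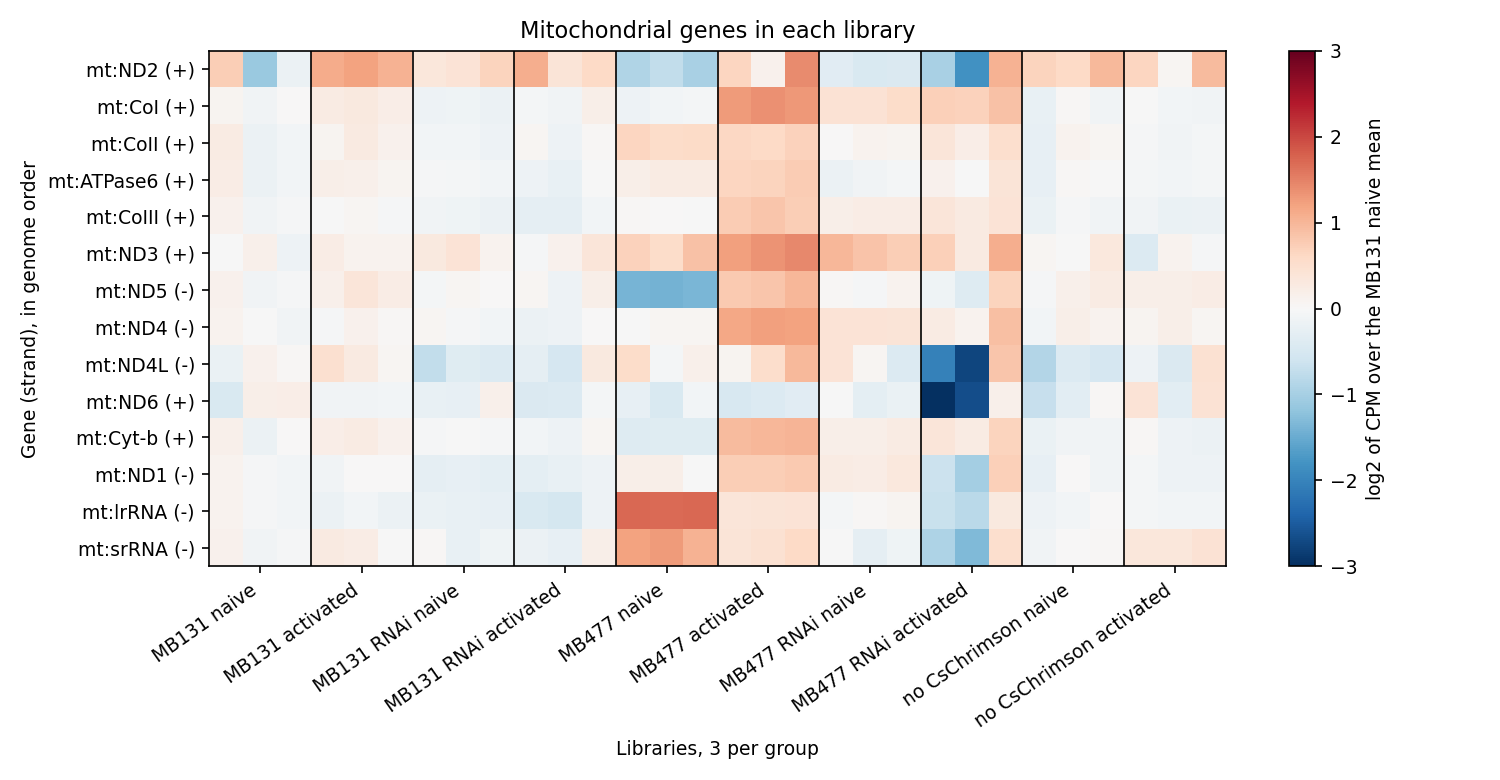
Each of the 14 mitochondrial genes over 1 CPM on average (listed in genome order, with its strand) in each of the 30 libraries, as log2 of its CPM over the mean of the naive MB131 libraries. Naive MB477 libraries show high lrRNA and srRNA and low ND5, activated MB477 libraries are high in 8 genes from CoI to ND1, and replicates 1 and 2 of activated MB477 with RNAi are low in ND4L and ND6 (4 to 8 counts each).

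The first comparison asks what changed 10 min after stimulation. In MB477, 9 of the 13 mitochondrial messenger RNAs rose and both ribosomal RNAs fell. CoI, the catalytic core of cytochrome c oxidase, went from 1164, 1230 and 1240 CPM in naive to 3140, 3365 and 3190 CPM in activated flies. Cyt-b went from the 3 values given above to 1277, 1327 and 1356 CPM, and ND5 from its values above to 357, 369 and 413 CPM. None of these groups overlapped. Of the 15 genes tested 9 rose and 2 fell, where 59.5% of all genes were called, 31.8% higher and 27.7% lower. The median log2 fold change over the 15 was 0.69, and over all genes tested such medians lay between -0.03 and 0.02 in every comparison.

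By complex, CoI rose by 1.46 ± 0.07 and CoIII, a core subunit of the same oxidase, by 0.81 ± 0.05 (edgeR adjusted p = 8.98e-15 and 1.63e-22), while CoII had 0.09 ± 0.09. Cyt-b rose by 1.40 ± 0.09 (edgeR adjusted p = 3.64e-12). In complex V ATPase6, part of the proton channel of the ATP synthase, rose by 0.50 ± 0.09. In complex I the rises were 2.31 ± 0.18 for ND5, 1.73 ± 0.51 for ND2, 1.20 ± 0.13 for ND4, 0.69 ± 0.23 for ND1 and 0.68 ± 0.13 for ND3. ND4L (0.37) and ND6 (-0.11) did not pass. Thus 5 of 7 complex I genes, 2 of 3 complex IV genes and the single complex III gene rose.

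The ribosomal RNAs moved the other way in MB477. The large one went from the naive values above to 6725, 6765 and 6972 CPM, a change of -1.28 ± 0.17 (edgeR adjusted p = 1.40e-06). The small one had -0.67 ± 0.24 and went to 39.3, 40.9 and 45.2 CPM (edgeR adjusted p = 0.0196). Activated levels of 8 genes (CoI, CoIII, Cyt-b, ATPase6, ND4, ND5, ND1 and ND3) lay above those of all other 27 libraries. That count was not made over all genes, so whether 8 genes are more than the usual share is not known. The 59.5% of all genes called with activation in MB477 come from edgeR's test, a different measure, and give no baseline for it. Some of the mitochondrial calls with activation in MB477 rested on single libraries. The fall of srRNA did not pass without naive replicate 2 or activated replicates 1 or 2 (-0.61, -0.62 and -0.65), the rise of ND1 without naive replicate 3 (0.63) and the rise of ND2 without activated replicate 3 (1.31). Over the alternatives their adjusted p reached 0.0621, 0.0525 and 0.0507 at most.

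Activation was compared in the same way in the other genotypes. In MB131, 2 of 15 rose and none fell, where 24.5% of all genes were called, 12.7% higher and 11.8% lower. CoI stood at 1376, 1208 and 1297 CPM in naive and 1524, 1584 and 1474 CPM in activated flies, without overlap, and rose by 0.28 ± 0.07 (edgeR adjusted p = 0.00337). Cyt-b stood at 737, 591 and 665 CPM against 766, 792 and 725 CPM, which overlap, and had 0.24 ± 0.09 (edgeR adjusted p = 0.0488). It did not pass when naive replicate 2 or 3 or activated replicate 1 or 2 was left out (0.16, 0.24, 0.24 and 0.22), nor with total counts only or without the filter. The ribosomal RNAs had -0.10 ± 0.17 (lrRNA) and 0.21 ± 0.25 (srRNA). The median of the 15 genes was 0.21. Without naive replicate 1, 5 genes rose, and without any 1 of the 4 libraries just named 1 did.

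In MB131 with RNAi, 1 of 15 genes rose and none fell, where 26.8% of all genes were called, 13.8% higher and 13.0% lower. CoI had 1169, 1187 and 1150 CPM in naive and 1246, 1198 and 1462 CPM in activated flies, a change of 0.22 ± 0.07 (edgeR adjusted p = 0.0205). The naive libraries lay below the activated ones, by a small margin for activated replicate 2. This call was lost without naive replicate 1 or 3 or activated replicate 3 (0.22, 0.21 and 0.13; edgeR adjusted p up to 0.116 over the alternatives). Cyt-b had 0.03 ± 0.09, lrRNA -0.09 ± 0.17 and srRNA 0.10 ± 0.26.

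Without CsChrimson none of the 15 genes passed in edgeR, where 21.0% of all genes did, 11.1% higher and 9.98% lower. The count at an unadjusted p under 0.05 was 0, and DESeq2 also called 0. CoI stood at 1115, 1322 and 1207 CPM in naive and 1284, 1217 and 1205 CPM in activated flies, and lrRNA at 4698, 4947 and 5230 against 4996, 4918 and 4930 CPM. Both genes overlapped between the groups. Their changes were 0.06 ± 0.07 and 0.03 ± 0.17, and that of Cyt-b was 0.08 ± 0.09. The small ribosomal RNA was at 27.8, 30.4 and 30.5 CPM in naive and 37.8, 37.8 and 40.2 CPM in activated flies, and its change of 0.42 ± 0.25 did not pass although the groups do not overlap. It passed when only these 6 libraries entered the fit (0.41).

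In MB477 with RNAi, 5 of 15 genes rose and none fell, where 28.7% of all genes were called, 15.6% higher and 13.1% lower. CoI had 1759, 1761 and 1902 CPM in naive and 2124, 2077 and 2382 CPM in activated flies, without overlap, and rose by 0.37 ± 0.07 (edgeR adjusted p = 1.86e-04). CoII and CoIII of the same complex rose by 0.38 ± 0.10 and 0.24 ± 0.05, ATPase6 by 0.39 ± 0.09 and Cyt-b by 0.33 ± 0.09. All 5 lie on the plus strand. The other genes spread widely among the activated libraries, as described below. The ribosomal RNAs had -0.23 ± 0.17 (lrRNA) and -0.09 ± 0.27 (srRNA).

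**Figure D3:**
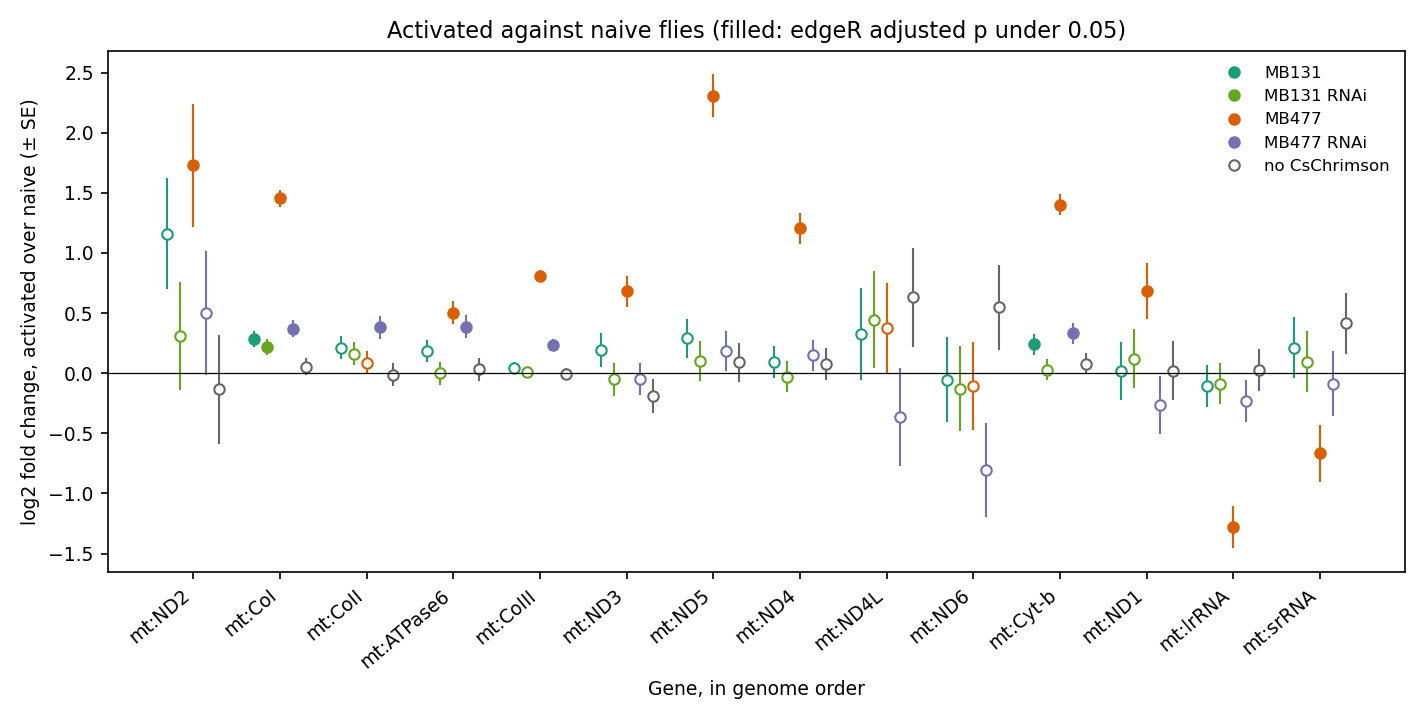
Log2 fold change of 14 mitochondrial genes between activated and naive flies in the 5 genotypes, with the SE as bars; filled points passed edgeR's test at an adjusted p under 0.05. MB477 (orange) has the largest changes, up to 2.31 for ND5 and down to -1.28 for lrRNA, and no point passed in flies without CsChrimson.

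The responses were compared by interaction terms, which test the difference between log2 fold changes. In MB131 none of the 15 genes passed edgeR's test for a response that differed with RNAi, where 6.06% of all genes did, 3.26% higher and 2.79% lower. None passed for a response that differed with CsChrimson, where 6.23% of all genes did, 2.70% higher and 3.53% lower. At an unadjusted p under 0.05 the counts were 0 and 1, and DESeq2 called 0 in both. In MB477 the response differed with RNAi for 9 genes, 1 more positively and 8 more negatively, where 51.6% of all genes were called, 24.7% higher and 26.9% lower. CoI differed by -1.09 ± 0.10, Cyt-b by -1.07 ± 0.12, ND5 by -2.12 ± 0.24 and lrRNA by 1.05 ± 0.24. Against flies without CsChrimson, 8 genes responded more positively in MB477 and 2 more negatively, where 46.7% of all genes were called, 26.6% higher and 20.2% lower. CoI differed by 1.40 ± 0.10, Cyt-b by 1.32 ± 0.12, ND5 by 2.22 ± 0.24 and lrRNA by -1.30 ± 0.24. Both MB477 interactions use the naive MB477 libraries, so their difference from the other libraries enters each of these values. Since the line of the flies lacking CsChrimson is not known, line and CsChrimson cannot be told apart there.

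RNAi against Kdm4B was compared at each state. In naive MB131 flies 1 gene fell and none rose, where 11.0% of all genes were called, 4.92% higher and 6.12% lower. CoIII stood at 1182, 999.2 and 1045 CPM without and 994.9, 979 and 946 CPM with RNAi, a change of -0.16 ± 0.05 (edgeR adjusted p = 0.0194). The highest values were without RNAi and the lowest with it, with a narrow gap between the groups. The call was lost, leaving 0 genes, without MB131 naive replicate 1 (-0.08) or RNAi naive replicates 2 or 3 (-0.16 and -0.14). CoI had -0.16 ± 0.07, Cyt-b -0.04 ± 0.09, lrRNA -0.24 ± 0.17 and srRNA -0.11 ± 0.26.

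In activated MB131 flies 2 of 15 genes fell with RNAi, where 11.5% of all genes were called, 5.84% higher and 5.65% lower. CoIII had -0.20 ± 0.05 and went from 1059, 1113 and 1057 CPM to 894, 893 and 1022 CPM (edgeR adjusted p = 0.00202), without overlap. CoI had -0.22 ± 0.07 (edgeR adjusted p = 0.0353), from the activated values above to 1246, 1198 and 1462 CPM. This call was lost without activated replicate 1 or 2 or RNAi activated replicate 1 or 2 (-0.17 to -0.23, edgeR adjusted p up to 0.161 over the alternatives) and when only these 6 libraries were fitted. Cyt-b had -0.25 ± 0.09, lrRNA -0.22 ± 0.17 and srRNA -0.23 ± 0.25. The medians of the 15 genes were -0.10 in naive and -0.20 in activated flies.

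In naive MB477 flies 5 genes were higher and 4 lower with RNAi, where 61.1% of all genes were called, 30.6% higher and 30.5% lower. The large ribosomal RNA was at 5034, 5301 and 5478 CPM with RNAi, a change of -1.74 ± 0.18 from the naive values above (edgeR adjusted p = 1.48e-08). The small one was at 29.5, 24.9 and 27.2 CPM, a change of -1.37 ± 0.25 (edgeR adjusted p = 4.97e-05). ND5 was at 211, 200.2 and 223 CPM, a change of 1.37 ± 0.18 (edgeR adjusted p = 7.78e-07). For all of these genes the groups are far apart. CoI (0.53 ± 0.07), Cyt-b (0.52 ± 0.09), ND4 (0.32 ± 0.13) and CoIII (0.14 ± 0.05) were also higher, and CoII (-0.57 ± 0.10) and ATPase6 (-0.39 ± 0.09) lower. The call for ND4 was lost whichever of the 6 libraries was left out (0.30 to 0.34), and that for CoIII without naive replicate 3 (0.12).

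In activated MB477 flies 11 of 15 genes were lower with RNAi and none higher, where 21.9% of all genes were called, 11.9% higher and 10.0% lower. CoI changed by -0.56 ± 0.07, Cyt-b by -0.55 ± 0.09 and CoIII by -0.43 ± 0.05 (edgeR adjusted p = 1.26e-06, 4.48e-05 and 3.86e-11), with values for CoI of 3140, 3365 and 3190 CPM without and 2124, 2077 and 2382 CPM with RNAi, and none of these groups overlapped. The complex I genes ND1 (-0.85 ± 0.24), ND5 (-0.75 ± 0.16), ND4 (-0.73 ± 0.13) and ND3 (-0.61 ± 0.13) and both ribosomal RNAs (lrRNA -0.69 ± 0.17, srRNA -0.80 ± 0.26) were lower as well. ATPase6 had -0.51 ± 0.09 and CoII -0.28 ± 0.09. The median over the 15 genes was -0.69. These calls depended on which libraries stood for activated MB477 flies with RNAi. With replicate 3 of that group as its only library, an alternative chosen after seeing the data, 4 of the 11 calls remained and lrRNA had -0.08, ND1 -0.03 and srRNA 0.04. When only the 6 libraries of the comparison were fitted, which keeps all 3 of that group, 4 genes passed, while the folds stayed near those above (lrRNA -0.68, srRNA -0.78, ND1 -0.83, ND5 -0.74, ND4 -0.72, Cyt-b -0.54 and ATPase6 -0.50 did not pass). Without single libraries the call of srRNA was lost in 4 cases (MB477 activated replicates 2 or 3, RNAi activated replicates 1 or 2; -0.49 to -0.81), that of ND1 in 2 (RNAi activated replicates 1 or 2; -0.65 and -0.55) and that of CoII in 5 (all but RNAi activated replicate 3; -0.21 to -0.30).

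The 3 libraries of activated MB477 flies with RNAi differed from each other in mitochondrial RNA. Replicate 3 lay above both others in 14 of 14 genes over 1 CPM. The large ribosomal RNA was at 3253, 2990 and 6394 CPM, srRNA at 15.8, 11.9 and 42.5 CPM and ND1 at 59.0, 45.8 and 152 CPM. ND6 had 4, 8 and 67 counts, ND4L 6, 4 and 57, and ND2 5.91, 3.26 and 23.8 CPM. In replicates 1 and 2 these genes lay near or below the lowest of the other 27 libraries, and replicate 3 lay within their range. CoI, by contrast, was at 2124, 2077 and 2382 CPM.

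The spread in that group was uneven among the genes. In 8 genes replicate 3 was more than 1.5-fold above both others, by 1.58- to 12.7-fold, and these include all 6 minus-strand genes (ND5, ND4, ND4L, ND1, lrRNA and srRNA) beside ND6 and ND2. In 5 genes, all on the plus strand (CoI, CoII, CoIII, ATPase6 and Cyt-b), it was within 1.5-fold of both, by 1.04- to 1.35-fold. ND3, on the plus strand, lay between, at 1.31- and 1.76-fold. The 5 close genes are also those outside complex I and the ribosomal RNAs. ND2 and ND6 spread widely though on the plus strand, and lrRNA did so though the highest of the 14 genes in level. The part of strand, complex and level in the spread was not tested. Summed complex I messenger RNA stood at 485, 413 and 870.2 CPM, and the other messenger RNAs together at 5330, 5036 and 5974 CPM. The share of minus-strand genes among mitochondrial messenger RNA counts was 7.78%, 7.14% and 11.8% in the 3 libraries. The median coefficient of variation over the 14 genes was 35.7% in this group and 3.40% to 11.0% in the others.

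**Figure D4:**
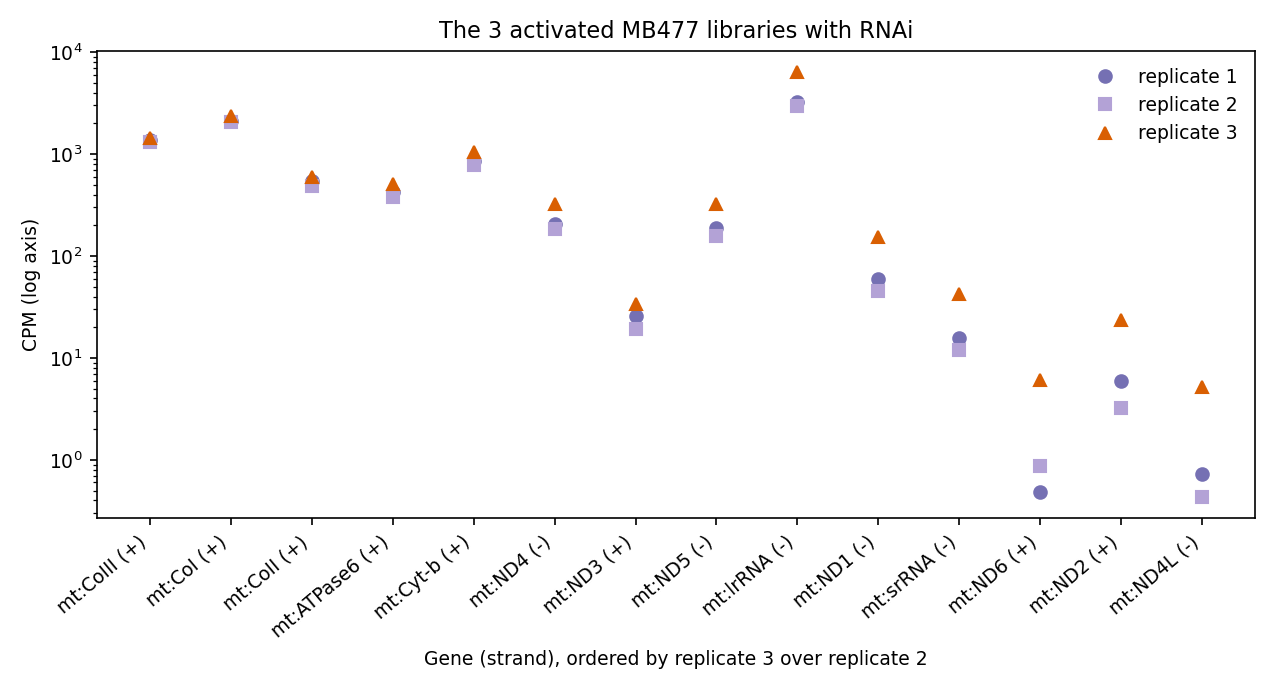
CPM (log axis) of 14 mitochondrial genes in the 3 libraries of activated MB477 flies with RNAi, ordered by the ratio of replicate 3 to replicate 2. The 3 libraries are close for the 5 genes at the left, such as CoI at 2124, 2077 and 2382 CPM, and replicate 3 (triangles) is well above for lrRNA, ND1, srRNA, ND6, ND2 and ND4L.

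Other genes differed between these libraries too. Among all 11457 genes tested, 34 were more than 2-fold higher and 29 more than 2-fold lower in replicate 3 than in the mean of the others (on CPM + 1). Of the 34, 6 were mitochondrial, and 5 of the 6 with the largest difference were mitochondrial. The number of such genes did not set replicate 3 apart. Higher and lower, it was 32 and 38 for replicate 1 and 20 and 42 for replicate 2. In other groups it ran from 5 and 8 (naive MB131 with RNAi, replicate 3) to 24 and 39 (naive MB477, replicate 3). The median absolute log2 difference from the other replicates over all genes was 0.119, 0.116 and 0.122 in the 3 libraries and 0.0986 to 0.134 over all 30. A chi-square of counts per degree of freedom grows with depth for the same relative difference. Replicates 1 and 2 had its lowest value of all replicate pairs (2.84), and replicate 3 gave 4.78 and 5.08 against them. The depths of the 3 libraries were 8291599, 9213933 and 10965988 counts. Summed muscle markers stood at 7234, 6894 and 7066 CPM, photoreceptor markers at 18997, 19012 and 18053 CPM and Kenyon cell markers at 3278, 3383 and 3565 CPM, so that replicate 3 was lowest in photoreceptor and highest in Kenyon cell markers. The part of depth and of these markers in the spread was not tested. Which of these libraries was used moved the activation result of MB477 with RNAi: without replicate 3, 5 genes rose and 5 fell (ND6 -2.75, ND4L -2.32, ND1 -1.01, srRNA -0.90, lrRNA -0.67), whereas with replicate 3 alone 11 rose, ND1 by 0.55, lrRNA by 0.39 and srRNA by 0.75.

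The lines were compared without RNAi. In naive flies 5 of 15 genes were higher and 2 lower in MB477 than in MB131, where 60.5% of all genes were called, 29.0% higher and 31.6% lower. The large ribosomal RNA, at 5584, 5120 and 4919 CPM in MB131, was higher in MB477 by 1.76 ± 0.18, and srRNA, at 32.9, 27.7 and 29.3 CPM in MB131, by 1.24 ± 0.25 (edgeR adjusted p = 1.21e-08 and 1.49e-04). ND5, at 225, 192 and 203 CPM in MB131, differed by -1.33 ± 0.18 (edgeR adjusted p = 1.18e-06). The naive lines did not overlap in these genes. ND3 (0.76 ± 0.14), CoII (0.64 ± 0.10) and ATPase6 (0.28 ± 0.09) were also higher and Cyt-b (-0.32 ± 0.09) lower, while CoI had -0.04 ± 0.07. ATPase6 did not pass without MB131 naive replicate 2 or 3 (0.20 and 0.25).

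In activated flies 10 of 15 genes were higher in MB477 and none lower, where 29.3% of all genes were called, 14.4% higher and 14.8% lower. The largest differences were ND3 with 1.25 ± 0.13, ND4 with 1.20 ± 0.13 and CoI with 1.13 ± 0.07 (edgeR adjusted p = 7.47e-14, 1.03e-07 and 4.10e-12). Cyt-b had 0.84 ± 0.09, CoIII 0.83 ± 0.05, ND1 0.83 ± 0.23, ND5 0.68 ± 0.16, ATPase6 0.60 ± 0.09, lrRNA 0.59 ± 0.17 and CoII 0.52 ± 0.09. The small ribosomal RNA (0.36 ± 0.24) did not pass. ND5 and Cyt-b thus were lower in MB477 before activation and higher after it. Comparisons that involve naive or activated MB477 flies share those libraries, so their values are not independent of each other.

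The nuclear genes that work with the mitochondrial genome were set beside it. Of 81 nuclear-encoded oxidative phosphorylation genes, 71 were tested. Their summed level was 21889 to 22904 CPM in naive MB477 flies and 10299 to 14874 CPM in the other 27 libraries. With activation 5 rose and 63 fell in MB477 (median -0.72), where 31.8% of all genes rose and 27.7% fell, and 9 of 15 mitochondrial genes rose and 2 fell. In MB477 with RNAi 49 rose and none fell (median 0.20; 15.6% and 13.1% of all genes), among them the complex IV subunit gene COX8 (0.41 ± 0.08) and the complex I subunit gene ND-19 (0.36 ± 0.08). In that comparison 11 of 13 muscle markers also rose and 1 fell (median 0.39), their sum going from 5546 to 5723 CPM to 6894 to 7234 CPM, 5 of 6 fat body markers rose, and 1 of 10 Kenyon cell markers rose and 7 fell. In MB131 the counts were 3 higher and 9 lower (12.7% and 11.8% of all genes), in MB131 with RNAi 0 and 28 (13.8% and 13.0%), and without CsChrimson 3 and 3 (11.1% and 9.98%).

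With RNAi, none of these 71 genes was higher and 49 were lower in naive MB131 flies (median -0.22), and none and 57 in activated ones (median -0.30), where 1 and 2 mitochondrial genes fell. Of all genes 6.12% and 5.65% were lower there. Muscle markers were lower in the same comparisons, 11 of 13 in naive (median -0.24) and 12 of 13 in activated flies (median -0.87), with none higher. In naive MB477 flies 2 were higher and 64 lower (median -0.94; 30.6% and 30.5% of all genes), ND-B12 of complex I by -1.52 ± 0.08, and in activated ones none and 11 (11.9% and 10.0%), ATPsynbeta of the ATP synthase by -0.22 ± 0.04. Between the lines 61 were higher and 2 lower in naive MB477 than in naive MB131 flies (median 0.84; 29.0% and 31.6% of all genes), with ND-B14.5B of complex I at 1.38 ± 0.08, and 48 and 2 in activated flies (median 0.20; 14.4% and 14.8%).

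Of 73 mitochondrial ribosomal protein genes, 72 were tested. With activation 3 rose and 43 fell in MB477 (median -0.42), where 59.5% of all genes were called, and mRpS5 was among those that rose (2.27 ± 0.15). RNAi in naive MB477 flies gave 2 higher and 52 lower (median -0.57; 61.1% of all genes called), and naive MB477 against MB131 gave 53 higher and 2 lower (median 0.56; 60.5%). In the other comparisons of activation, RNAi and lines at most 8 of the 72 were called, against 11.0% to 29.3% of all genes. Of 19 genes for the upkeep and expression of mitochondrial DNA, 16 were tested. With activation in MB477, 2 rose and 4 fell, a smaller share than the 59.5% of all genes called, among them TFAM, which packages mitochondrial DNA (-0.54 ± 0.09), and SLIRP2 (-1.26 ± 0.36). TFAM was higher in naive MB477 than in naive MB131 flies by 0.47 ± 0.09, and bsf, an RNA-binding protein gene, was lower with RNAi in activated MB477 flies (-0.35 ± 0.09).

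Markers of other cell types moved in the same comparisons, and their part in the mitochondrial changes was not tested. In RNA pooled from many nuclei, fewer cells of a type and less RNA per cell cannot be told apart. Between naive lines 2 of 10 Kenyon cell markers were higher and 8 lower in MB477 (median -1.47), 10 of 13 muscle markers higher and 2 lower (median 0.42), and 6 of 6 fat body markers higher. The shares over all genes were 29.0% higher and 31.6% lower. Summed Kenyon cell markers stood at 2859 to 2899 CPM in naive MB477 and 4692 to 4904 CPM in naive MB131 flies, and summed muscle markers at 9621 to 9733 and 7095 to 7571 CPM. With activation in MB477, 6 Kenyon cell markers rose and 4 fell, their sum being 2753 to 2867 CPM afterwards, and 3 muscle markers rose and 8 fell, to a sum of 8242 to 8282 CPM. Fat body markers rose in 5 of 6 from a sum of 21447 to 21793 CPM to 42018 to 43894 CPM, and photoreceptor markers in 7 of 8 with 1 fall, from 10240 to 10357 CPM to 21006 to 21170 CPM. Glial markers gave 6 rises and 1 fall of 8, and hemocyte markers 3 rises of 4. With activation in MB477, 31.8% of all genes rose and 27.7% fell, so a mix of rises and falls is common there.

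With RNAi in naive MB477 flies 8 Kenyon cell markers were higher and 2 lower, and 1 muscle marker higher and 11 lower, at a summed muscle level of 5546 to 5723 CPM. Over all genes, 30.6% were higher and 30.5% lower in that comparison. In activated MB477 flies with RNAi 8 of 10 Kenyon cell markers were higher and none lower, 1 muscle marker was higher and 10 lower, and 6 of 6 fat body markers were lower. There 11.9% of all genes were higher and 10.0% lower. With activation 11 of 13 muscle markers fell in MB131, 12 in MB131 with RNAi and 9 in flies without CsChrimson, and none rose. Of all genes 11.8%, 13.0% and 9.98% fell in these comparisons. Photoreceptor markers rose in 8 of 8 with activation in MB131, in MB131 with RNAi and without CsChrimson. Of all genes 12.7%, 13.8% and 11.1% rose there.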

How the data were processed

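Counts per gene were used as deposited: raw HTSeq counts of 17559 genes, with 3 libraries in each of 10 groups, made by the authors with STAR, HTSeq and the dm6 build, per the submitters' processing notes, which also name DESeq2 and give no versions. Strand handling and multi-mapping reads are not stated. Columns were matched to samples by title, and none was left unused. Depth was 8291599 to 14344348 counts per library. No pair of replicates agreed within counting noise (chi-square per degree of freedom 2.84 to 6.90).

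Genes were kept by edgeR's filterByExpr (minimum count 10, minimum total 15), which left 11457 genes and at least 99.9% of each library's counts. Counts were scaled by TMM factors (0.952 to 1.04). All 30 libraries entered 1 quasi-likelihood fit with robust estimation and a mean per group (edgeR 4.0.16, limma 3.58.1, R 4.3.3), and p-values were adjusted by the Benjamini-Hochberg method across those 11457 genes (threshold 0.05). The biological coefficient of variation was 6.32%. The SE was taken as the absolute log2 fold change over the square root of F. The fit was tested on simulated data. Levels in CPM used total counts without TMM factors.

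The genes named in each comparison were lrRNA, srRNA, CoI and Cyt-b, every mitochondrial gene past the threshold where there were at most 6, otherwise the 3 largest rises and the 3 largest falls, and up to 3 genes of each other list. Further members were described as members of the set. The members and lists were chosen with earlier results of these data known. Alternatives were relative-log-expression factors, total counts only, scaling without mitochondrial genes, no filter, DESeq2 1.42.0, only the groups compared, a replicate block and leaving out each library, and, added after seeing the data, leaving out replicates 1 and 2 of activated MB477 flies with RNAi. No sequence was used.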

Additional observations from a re-analysis of the deposited data

Results flagged for a closer look

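In MB477 the response to activation differed between flies without and with RNAi by the interaction term of edgeR's quasi-likelihood test. The difference, RNAi minus no RNAi, was -1.09 ± 0.10 for CoI (adjusted p = 1.53e-09), -1.07 ± 0.12 for Cyt-b (adjusted p = 1.36e-07) and -2.12 ± 0.24 for ND5 (adjusted p = 1.28e-07). For lrRNA it was 1.05 ± 0.24 (adjusted p = 0.00101). The difference for tRNA:Y, -2.996 ± 1.14, rests on 0 to 18 counts per MB477 library (adjusted p = 0.0216, 0.00362 to 0.0872 over the alternatives). It did not pass without MB477 naive replicate 1 or 2 (-2.73 and -2.37), activated replicate 3 (-2.71) or RNAi activated replicate 3 (-2.50).

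The response also differed between MB477 and flies without CsChrimson, by 1.40 ± 0.10 for CoI (edgeR adjusted p = 2.34e-11), 1.32 ± 0.12 for Cyt-b (6.74e-09) and 2.22 ± 0.24 for ND5 (7.98e-08). The ribosomal RNAs differed by -1.30 ± 0.24 for lrRNA (edgeR adjusted p = 1.24e-04) and -1.08 ± 0.35 for srRNA (0.0136). ND2 differed by 1.86 ± 0.69 (edgeR adjusted p = 0.0307, 0.00468 to 0.109 over the alternatives). It did not pass without MB477 naive replicate 1 or 3 (1.85 and 1.81), activated replicate 3 (1.44), or, in flies without CsChrimson, naive replicate 3 or activated replicate 2 (1.74 and 1.65). Both sets of differences contain the naive MB477 libraries. The weight of single libraries was checked only by leaving libraries out, and with 3 libraries a group no separate outlier test was made.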

How the results depend on the processing

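The number of mitochondrial genes called did not change in any comparison with relative-log-expression factors or with scaling that left out mitochondrial genes. Without the filter activation gave 1 in MB131 and 6 in MB477 under RNAi (ND6 added), and RNAi in activated MB477 flies gave 12 (ND4L added). Total counts only gave 1 for activation in MB131 and 0 under RNAi. DESeq2 gave 4 for RNAi in activated MB131 flies, against 2. With only the groups compared, activation gave 4 genes in MB131 (2 under RNAi), 3 in MB477 under RNAi and 1 in flies lacking CsChrimson, RNAi gave 4 in naive MB131, 8 in activated MB131 and 4 in activated MB477 flies, the lines gave 9 (naive) and 11 (activated), and the interactions with CsChrimson gave 1 in MB131 and 11 in MB477.

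Without replicates 1 and 2 of activated MB477 flies with RNAi, the lone library being assumed to vary like the other groups, activation gave 4 genes in MB131, 11 in MB477 under RNAi and 1 in flies lacking CsChrimson, and RNAi gave 3 in naive MB131, 6 in activated MB131 and 4 in activated MB477 flies. Directions turned for ND1 (0.55), lrRNA (0.39) and srRNA (0.75) with activation in MB477 with RNAi, and for srRNA with RNAi in activated MB477 flies (0.037). The cause was not tested.

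Leaving out 1 library gave 1 to 5 genes for activation in MB131 (0 to 1 under RNAi) and 10 to 11 in MB477 (5 to 10 under RNAi). It gave 0 to 1 and 1 to 2 for RNAi in naive and activated MB131 flies, 8 for each library in naive and 8 to 14 in activated MB477 flies. The lines gave 6 to 8 and 10. The same replicate numbers did not pair the samples (correlations of their deviations from -0.0317 to 0.0550). With the replicate block activation gave 3 genes in MB131 and 6 in MB477 under RNAi, RNAi in activated MB477 flies gave 12, and the other counts did not change. The mean mitochondrial share, 1.12%, was 0.499% without the ribosomal RNAs and 0.503% without lrRNA. Depth limits ND2, ND4L, ND6, ATPase8 and the transfer RNAs.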
